A study of Gallus gallus with 12 samples.

Results

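Methylation-enriched regions of chicken liver were compared between 2 libraries with high coverage of chromosome Z and low coverage of chromosome W and 4 libraries with the opposite pattern. These are all 6 peak lists of the series. The first side, called Z-rich W-poor here, holds resistant replicate 3 and susceptible replicate 3. The second side, called W-rich, holds replicates 1 and 2 of both groups. The sides were chosen by the length that peaks covered on Z and W, so every Z and W value below is a description and carries no test. Coverage of Z was 65.3 and 68.1 kb per Mb in the Z-rich W-poor libraries, against 30.9, 31.8, 29.9 and 31.7 kb per Mb in the W-rich libraries (resistant replicates 1 and 2, then susceptible replicates 1 and 2, the order kept throughout). Coverage of W was 50.2 and 53.3 kb per Mb in the Z-rich W-poor libraries, against 185, 181, 179 and 189 kb per Mb in the W-rich libraries. Any limit between 31.8 and 65.3 kb per Mb on Z, or between 53.3 and 179 kb per Mb on W, gives the same sides.

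The birds were recorded as ALV-J-resistant or ALV-J-susceptible. ALV-J is avian leukosis virus subgroup J, a retrovirus of chickens. Each ALV-J group gave 3 libraries made by methylated DNA immunoprecipitation from frozen liver, a method in which an antibody against methylated cytosine recovers DNA fragments for sequencing, and the matched input libraries served the authors' peak calling. The inputs have no list of their own here. Each side holds both ALV-J groups in equal number. The labels give no sex, age, breed or infection status, and do not say whether each library is 1 bird, so p-values measure the spread between these samples. In birds the male is the sex with paired Z chromosomes, while the female has a Z and a W, and birds do not silence a whole Z as mammals silence an X. The W of birds is small and rich in repeated DNA, endogenous retroviruses among it, and copies of the same repeat families also lie on autosomes. The male hypermethylated locus of chicken Z is a known place where the sexes differ in methylation. Since the genome and annotation of build galGal4 were not used here, regions are given by position, with no gene names and no sequence.

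Whole lists held 56120 and 55599 peaks in the Z-rich W-poor libraries, against 64559, 61753, 55759 and 62534 in the W-rich libraries. Read depth is unknown for every library, and the lack of a peak means that none reached the authors' limit, not that methylation was absent. The deposited peak score, a measure of each peak's p-value that rises with depth, starts at 80. Its median over autosomal peaks was 192 and 187 in the Z-rich W-poor libraries, against 185, 196, 198 and 188 in the W-rich libraries, so that the sides overlapped. Autosomes here are chromosomes 1 to 28 and the linkage group LGE64.

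On the autosomes the Z-rich W-poor libraries had fewer and wider peaks, and their covered length lay within the range of the W-rich libraries. Autosomal peaks numbered 50924 and 50351 in the Z-rich W-poor libraries, against 61140, 58218, 52494 and 59084 in the W-rich libraries. Both Z-rich W-poor lists were shorter than every W-rich list, although susceptible replicate 1 came close. The mean difference was -7096.5 peaks (exact permutation test over the 15 choices of 2 of 6 libraries, two-sided, p = 0.133). The smallest p that this exact permutation test can give with 2 against 4 libraries is 0.0667, so none of these tests could pass 0.05. Within the resistant group the difference was -8755 peaks and within the susceptible group -5438.

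Mean autosomal peak width was 788 and 824 bp in the Z-rich W-poor libraries, against 693, 699, 726 and 717 bp in the W-rich libraries. The sides did not overlap. The difference of 97.2 bp was the most extreme of the 15 choices (exact permutation p = 0.0667), and it was 92.2 bp within the resistant and 102 bp within the susceptible group. Narrow, middle and wide peaks all showed the same order. The 10th percentile of width was 365 and 394 bp in the Z-rich W-poor libraries, against 334, 324, 341 and 345 bp in the W-rich libraries. The median was 606 and 630 bp against 532, 541, 560 and 550 bp in W-rich libraries, and the 90th percentile 1357 and 1416 bp against 1185, 1198, 1251 and 1229 bp. The shortest autosomal peak of a list also differed by side, at 194 and 184 bp in the Z-rich W-poor libraries, against 168, 162, 176 and 167 bp in the W-rich libraries. The part of library fragment size in these widths was not tested.

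Wider and fewer peaks held on most single chromosomes. These come from the same 6 libraries, so they are not independent repeats of the difference over all autosomes. Mean width was higher in both Z-rich W-poor libraries than in every W-rich library on 28 of the 29 autosomes and linkage groups, with LGE64 the exception. Peak number was lower in both on 25 of 29 and higher in both on 0. On chromosome 25, a small chromosome with the highest peak coverage, mean width was 1102 and 1158 bp in the Z-rich W-poor libraries, against 977, 1004, 1028 and 1003 bp in the W-rich libraries. On chromosome 2 it was 664 and 692 bp in the Z-rich W-poor libraries, against 584, 593, 614 and 610 bp in the W-rich libraries.

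Covered autosomal length was 40.1 and 41.5 Mb in the Z-rich W-poor libraries, against 42.3, 40.7, 38.1 and 42.4 Mb in the W-rich libraries. The Z-rich W-poor values lay inside the range of the W-rich ones, and the difference of -0.0780 Mb was small beside their spread (exact permutation p = 1). It was -1.39 Mb within the resistant and 1.24 Mb within the susceptible group. With the same number of highest-scoring autosomal peaks taken from every list it turned to 2.88 Mb (exact permutation p = 0.0667), an alternative that by construction shortens every list except that of susceptible replicate 3. Covered length is then a fixed peak number times mean width, so this value repeats the width difference at that setting (57.1 bp). The difference in covered length also turned without resistant replicate 1 (0.409 Mb), resistant replicate 3 (0.592 Mb) or susceptible replicate 2 (0.423 Mb).

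**Figure D1:**
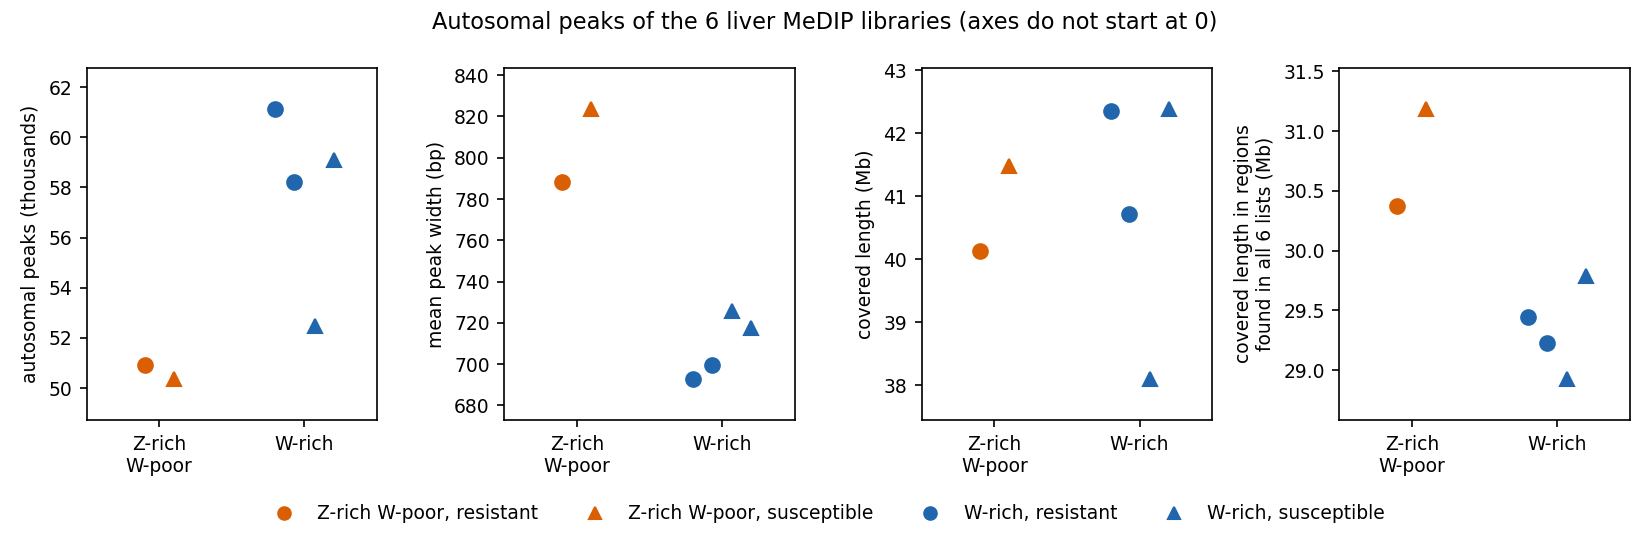
Autosomal peak number (in units of 1000), mean peak width (bp), covered length (Mb) and covered length in regions found in all 6 lists (Mb), 1 point per library, with Z-rich W-poor libraries in orange and W-rich in blue. Both orange points lie below all blue ones for peak number and above all blue ones for width and for shared regions, while covered length overlaps.

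The same places were covered more broadly. Merging overlapping or touching autosomal peaks across libraries gave 84237 regions, of which 28475 (33.8%) had a peak in every library. Within these shared regions peaks covered 30.4 and 31.2 Mb in the Z-rich W-poor libraries, against 29.4, 29.2, 28.9 and 29.8 Mb in the W-rich libraries. The difference of 1.43 Mb, or 4.89%, left the sides apart (exact permutation p = 0.0667), with 1.04 Mb within the resistant and 1.83 Mb within the susceptible group. With peaks up to 500 bp apart joined, the difference was 1.31 Mb (exact permutation p = 0.133). Without such joining, the number of peaks in shared regions was 31800 and 31220 in the Z-rich W-poor libraries, against 33163, 32959, 32674 and 32685 in the W-rich libraries. The sides were apart here too (exact permutation p = 0.0667), with fewer peaks in the Z-rich W-poor libraries. Outside shared regions the lists held 19124 and 19131 peaks in the Z-rich W-poor libraries, against 27977, 25259, 19820 and 26399 in the W-rich libraries.

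In the full lists, coverage by chromosome class did not separate the sides. The large chromosomes 1 to 5 were covered at 24.1 and 25.3 kb per Mb in the Z-rich W-poor libraries, against 26.5, 25.3, 23.4 and 26.5 kb per Mb in the W-rich libraries (difference -0.693, exact permutation p = 0.667). Chromosomes 6 to 10 had 48.7 and 50.002 kb per Mb in the Z-rich W-poor libraries, against 51.7, 49.5, 45.8 and 51.6 kb per Mb in the W-rich libraries (difference -0.316, exact permutation p = 0.933). The small chromosomes 11 to 28 had 108 and 110.2 kb per Mb in the Z-rich W-poor libraries, against 109.9, 106, 101 and 109.9 kb per Mb in the W-rich libraries (difference 2.20, exact permutation p = 0.6). After Benjamini-Hochberg adjustment over the 3 classes every exact permutation p was 0.933. Within the resistant group the difference was below 0 in all 3 classes, at -1.75, -1.93 and -0.443 from large to small chromosomes. Within the susceptible group it was above 0 in all 3, at 0.361, 1.30 and 4.85. By class, the sign depended on chromosome size only with both ALV-J groups pooled. On single chromosomes the sign also varied within a group. Within the resistant group the difference was -1.96 kb per Mb on chromosome 1, -5.59 on chromosome 24 and 11.1 on chromosome 25. Within the susceptible group it was 0.493, 7.69 and 21.5 on the same chromosomes, and -9.92 on chromosome 16. The pooled mean difference was below 0 on all 7 of chromosomes 1 to 7 and above 0 on 19 of the 21 chromosomes from 8 to 28. With equal list lengths it was above 0 for chromosomes 1 to 5 as well (1.64 kb per Mb) and for chromosomes 6 to 10 (3.44 kb per Mb), so the sign on large chromosomes changed with list length. Microchromosomes 11 to 28 took 46.1% and 45.6% of the covered autosomal length in the Z-rich W-poor libraries, against 44.6%, 44.9%, 45.4% and 44.5% in the W-rich libraries. The sides did not overlap in this share, by a narrow margin.

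Of the 29 autosomes and linkage groups, 3 (10.3%) had higher coverage in both Z-rich W-poor libraries than in every W-rich library, and 0 had lower coverage in both. All 3 are microchromosomes, the small gene-dense chromosomes of birds. Chromosome 25 had 339.7 and 346 kb per Mb in the Z-rich W-poor libraries, against 327, 330.5, 319 and 330.0 kb per Mb in the W-rich libraries, a difference of 16.3 kb per Mb (exact permutation p = 0.0667, adjusted p = 1 over 29). Chromosome 27 had 193 and 194 kb per Mb in the Z-rich W-poor libraries, against 183, 179, 179.6 and 191 kb per Mb in the W-rich libraries (difference 10.5, exact permutation p = 0.133). Chromosome 28 had 218 and 221 kb per Mb in the Z-rich W-poor libraries, against 213, 208, 203 and 214 kb per Mb in the W-rich libraries (difference 10.2, exact permutation p = 0.133). None passed the adjustment, where every adjusted p was 1. Chromosome 16, home of the chicken MHC, had 211 and 225 kb per Mb in the Z-rich W-poor libraries, against 215, 219, 216 and 253 kb per Mb in the W-rich libraries, and the sides overlapped there.

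**Figure D2:**
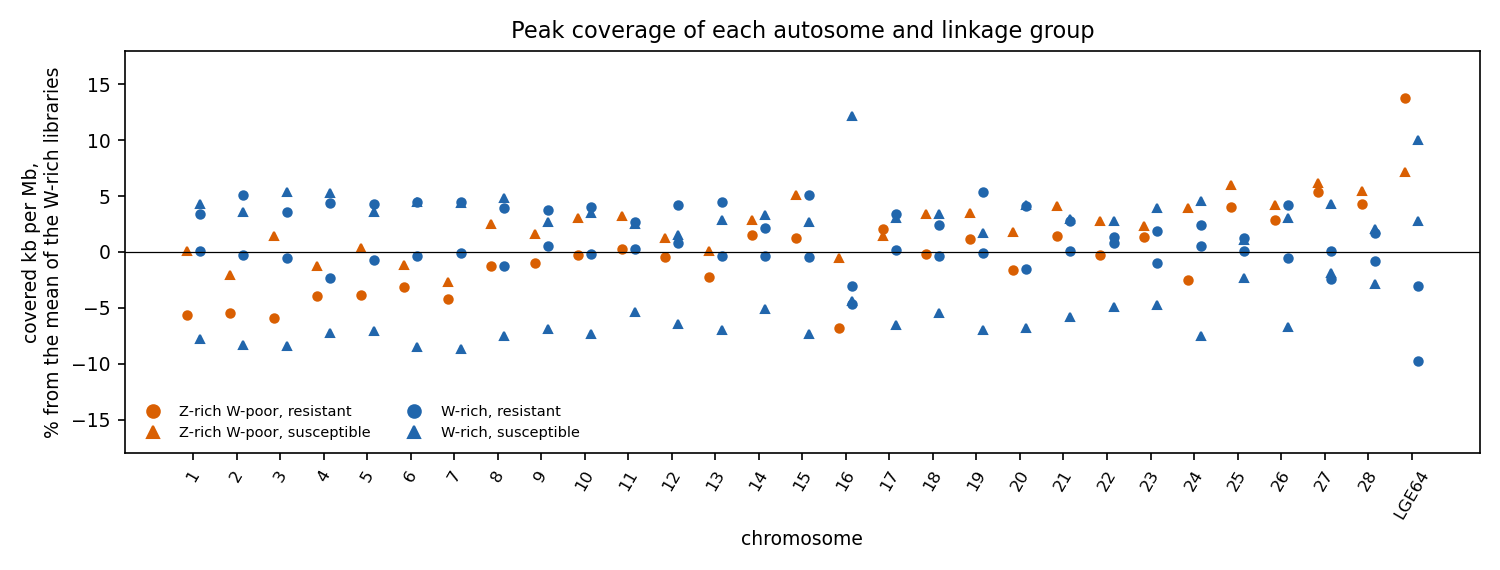
Peak coverage of each autosome and linkage group as the percentage difference from the mean of the 4 W-rich libraries, 1 point per library, with Z-rich W-poor libraries in orange left of W-rich libraries in blue. Orange points sit among the blue ones on large chromosomes and above all of them on chromosomes 25, 27 and 28.

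Regions found on 1 side only came next. A peak in both Z-rich W-poor libraries and in 0 W-rich libraries was present in 431 autosomal regions. Regions found in exactly 2 libraries numbered 11027, so these were 3.91% of them, and the other 14 pairs of libraries held 354 to 1253 each (median 728.5), so 12 of 14 held at least as many. The reverse, a peak in all 4 W-rich libraries and in 0 Z-rich W-poor libraries, was present in 1088 regions. Regions found in exactly 4 libraries numbered 7445, so these were 14.6% of them. The other 14 choices of 4 libraries held 267 to 699 each (median 456), so none reached this number.

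Both counts depended on list length and on how regions were defined. With equal numbers of highest-scoring autosomal peaks there were 816 regions of the Z-rich W-poor libraries, against 622 of the W-rich libraries. Each was then the highest of its 15 choices, the others holding 557 to 767 and 344 to 486. This setting removes more weak peaks from the longer W-rich lists. By construction it can thus leave a region to the Z-rich W-poor libraries alone. With 1 score limit of 191.03 for all lists, the Z-rich W-poor count was 176, within the 150 to 574 of other pairs. The W-rich count was then 668, above the 111 to 292 of other choices. In fixed windows of 1000 bp the counts were 755 of the Z-rich W-poor libraries, above the 224 to 615 of other pairs, and 283 of the W-rich libraries, within the 203 to 471 of other choices. Leaving out 1 library loosens the definition and gave 626 to 2817 regions of the Z-rich W-poor libraries and 1572 to 2892 of the W-rich libraries. The highest of each came without resistant replicate 3, and without susceptible replicate 3 they were 2747 and 2806.

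Among regions found in exactly 4 libraries, the strong ones were mostly those of the W-rich libraries. The score of each peak was turned into a percentile within its own list, and a region was called strong where the lowest percentile of its libraries was at least 50. Strong regions numbered 139 among the 1088 of the W-rich libraries. Each of the other 14 choices of 4 libraries held 1 to 10, so the W-rich libraries accounted for 73.5% of all 189 strong regions with a peak in exactly 4 libraries. Among the 431 regions of the Z-rich W-poor libraries 3 were strong, within the 0 to 8 of the other pairs. With equal list lengths the strong W-rich regions numbered 141, against 3 to 11 for the other choices. Leaving out 1 W-rich library gave 154 to 158, and leaving out resistant replicate 3 or susceptible replicate 3 gave 253 and 256.

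The W-rich share was lower among weak regions than among strong ones. Over all regions in exactly 4 libraries this share was 14.6%, while each of the other 14 choices had 3.59% to 9.39% (median 6.12%). Of regions in exactly 4 libraries whose lowest score was 80 to 100, 11.9% belonged to the W-rich choice (565 of the W-rich and 4197 of all other choices together). At a lowest score of 200 to 500 the share was 64.2% (61 and 34), and at 500 to 1000 it was 96.2% (25 and 1). It was lower again above that, at 86.7% for 1000 to 2000 (13 and 2), 88.9% for 2000 to 3100 (8 and 1) and 88.5% for 3100 or more (23 and 3), each from few regions. These scores are cut at the top, since 94.2% of all peaks scoring 3100 or more stood at exactly 3100.

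**Figure D3:**
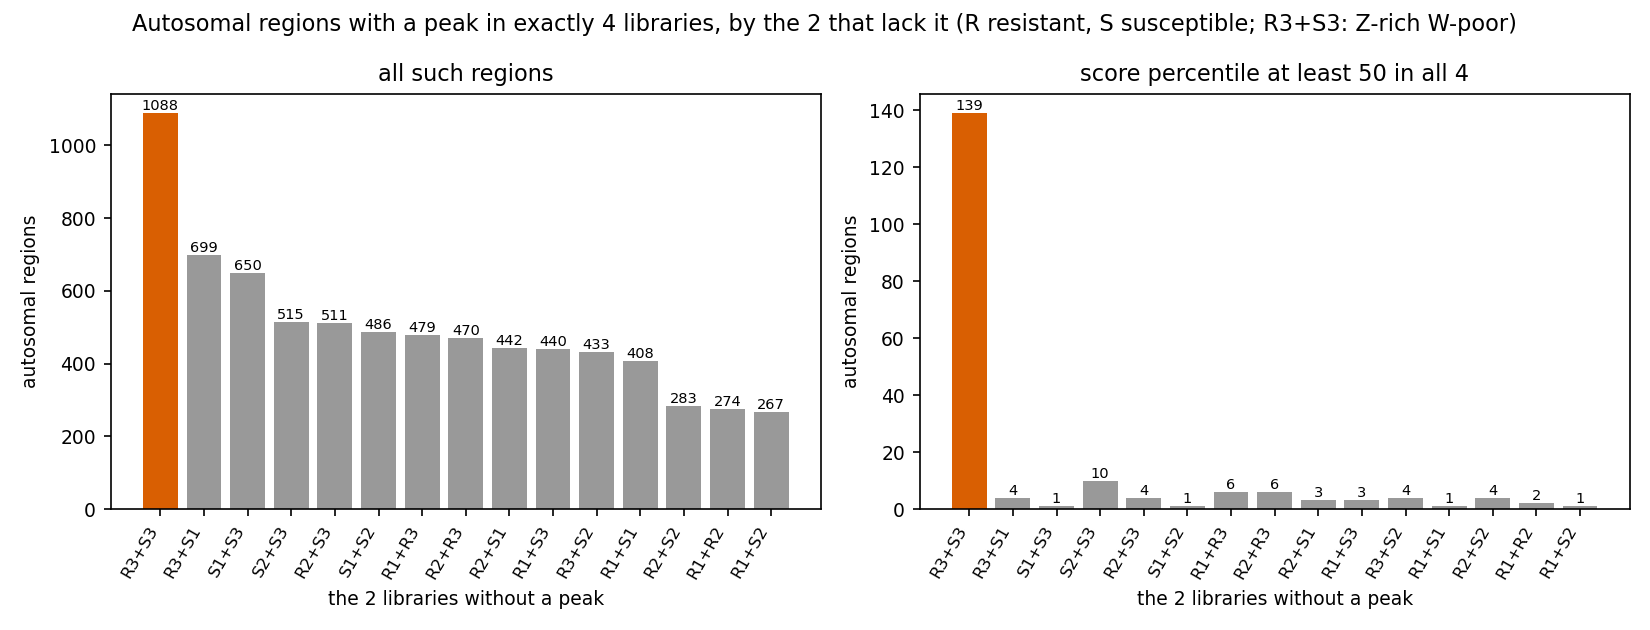
Number of autosomal regions with a peak in exactly 4 libraries, for each choice of the 2 libraries that lack it, over all such regions (left) and over those with a score percentile of at least 50 in all 4 (right). The bar for the Z-rich W-poor pair stands at 1088 and 139, and the grey bars of the other 14 pairs reach 699 and 10.

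The same definition was also applied within each ALV-J group. In the resistant group 6832 regions had a peak in both W-rich libraries and none in the Z-rich W-poor library. Of these, 583 had a percentile of at least 50. The susceptible group had 5865 such regions, with 507 at that percentile. The regions in both of these stronger sets are by definition the 139 already counted, so they add no support to that number. They were 23.8% of the stronger resistant set and 27.4% of the stronger susceptible set, so most regions of each were not in the other. Without the percentile limit the shared part was smaller, at 15.9% and 18.6%. In the other direction 4796 and 5776 regions had a peak in the Z-rich W-poor library of the group alone. Of these, 205 and 243 had a percentile of at least 50, and the 3 in both (1.46% and 1.23%) are again those already counted. Without the percentile limit the shared part was 8.99% and 7.46%. This direction asks for a peak in 1 library and the first for a peak in 2, so their counts cannot be compared directly.

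Strong W-rich regions were shorter and farther from other regions than strong regions shared by all libraries. Their median length was 515 bp (252 to 1959), against 1241 bp for the 15244 regions that had a percentile of at least 50 in all 6 libraries. This length was close to the 551 bp of the weaker W-rich regions and the 590 bp of all 6357 regions in exactly 4 libraries of the other choices. The 50 strong ones among those 6357 had a median length of 922.5 bp. From the strong W-rich regions the nearest other region lay at a median of 3979 bp. That distance was 538 bp for the strong shared regions, 1704 bp for the weaker W-rich regions and 987.5 bp for the 50 strong regions of the other choices. Another region still lay within 5000 bp of 78 of the 139 (56.1%). The nearest peak of a Z-rich W-poor library lay at a median of 7878 bp. On chromosomes 1 to 5 there were 115 of the 139 (82.7%), with 9 on chromosomes 6 to 10 and 15 on chromosomes 11 to 28. Chromosomes 1 to 5 held 65.7% of the measured autosomal length but 35.5% of the strong regions shared by all 6 libraries. They held 57.8% of all 1088 W-rich regions and 48% of the 50 strong regions of the other choices of 4 libraries. By chromosome, 49 lay on chromosome 1, 28 on chromosome 2, 18 on chromosome 3, 18 on chromosome 4 and only 2 on chromosome 5. Per 100 Mb of measured length these were 25.1, 18.8, 16.3, 20.0 and 3.36. Among small chromosomes the highest densities came from few regions. They were 188 on chromosome 16 (1 region), 57.6 on chromosome 27 (3 regions), 24.5 on chromosome 22 (1 region) and 22.5 on chromosome 13 (4 regions). Chromosomes 10, 11, 12, 17, 18, 19, 24, 25, 26 and 28 and LGE64 held 0.

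The strongest of them had a score of 3100 or more in every W-rich library and no peak in the Z-rich W-poor libraries. There were 23 such regions, tied in rank, and the first 10 in genome order are given (galGal4, counted from 1). On chromosome 1 the region at 42449157 to 42449945 was 789 bp long, and that at 47244920 to 47245782 was 863 bp long. The next pair, at 140685208 to 140685581 and 141319670 to 141320108, measured 374 and 439 bp. Farther along chromosome 1 came 153190395 to 153190985, 162852025 to 162852924 and 164133356 to 164133837, with lengths of 591, 900 and 482 bp. On chromosome 2 the region at 27249978 to 27250834 (857 bp) lay 124776 bp from the nearest peak of a Z-rich W-poor library, the farthest of the 10. Those at 61426105 to 61426786 and 138703806 to 138704683 lay 55640 and 19795 bp away. The closest was 141319670 to 141320108, at 1113 bp.

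Some autosomal places had top scores in the W-rich libraries and low scores or no peak in the others. In 973 autosomal regions every W-rich library scored 3100 or more (809 to 892 for the other 14 choices of 4 libraries). In 83 of them both Z-rich W-poor libraries either had no peak or scored under 1000. Those 83 comprised 23 with no peak in either, 18 with a peak in 1, and 42 with a peak in both. In the 42 the score had a median of 168 (89.22 to 645) in resistant replicate 3 and of 307 (88.51 to 837) in susceptible replicate 3, against a median of 3100 in each W-rich library. The sides were far apart in all 42 by the way they were picked. For the other 14 choices of 4 libraries the matching count was 0 to 5.

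The 83 regions had a median length of 630 bp and the nearest other region at a median of 8189 bp. The remaining 890 regions with 3100 or more in every W-rich library had a median length of 3356.5 bp and a nearest neighbour at 436 bp. On chromosomes 1 to 5 lay 81.9% of the 83 and 36.7% of the 890. In the mirrored direction both Z-rich W-poor libraries scored 3100 or more in 944 autosomal regions (925 to 1194 for the other 14 pairs). All 944 had a peak in every W-rich library, and the highest of the W-rich scores was never below 2689.32. The count of such regions with every W-rich score under 1000 was thus 0, and it was 0 or 1 for each of the other 14 pairs. The count of 83 stayed between 82 and 90 in every alternative run for it, but most of these could hardly change it. Removing weak peaks leaves scores of 3100 or more in place and low scores still under 1000. The cover limit does not enter this count, and leaving out a library loosens its definition.

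**Figure D4:**
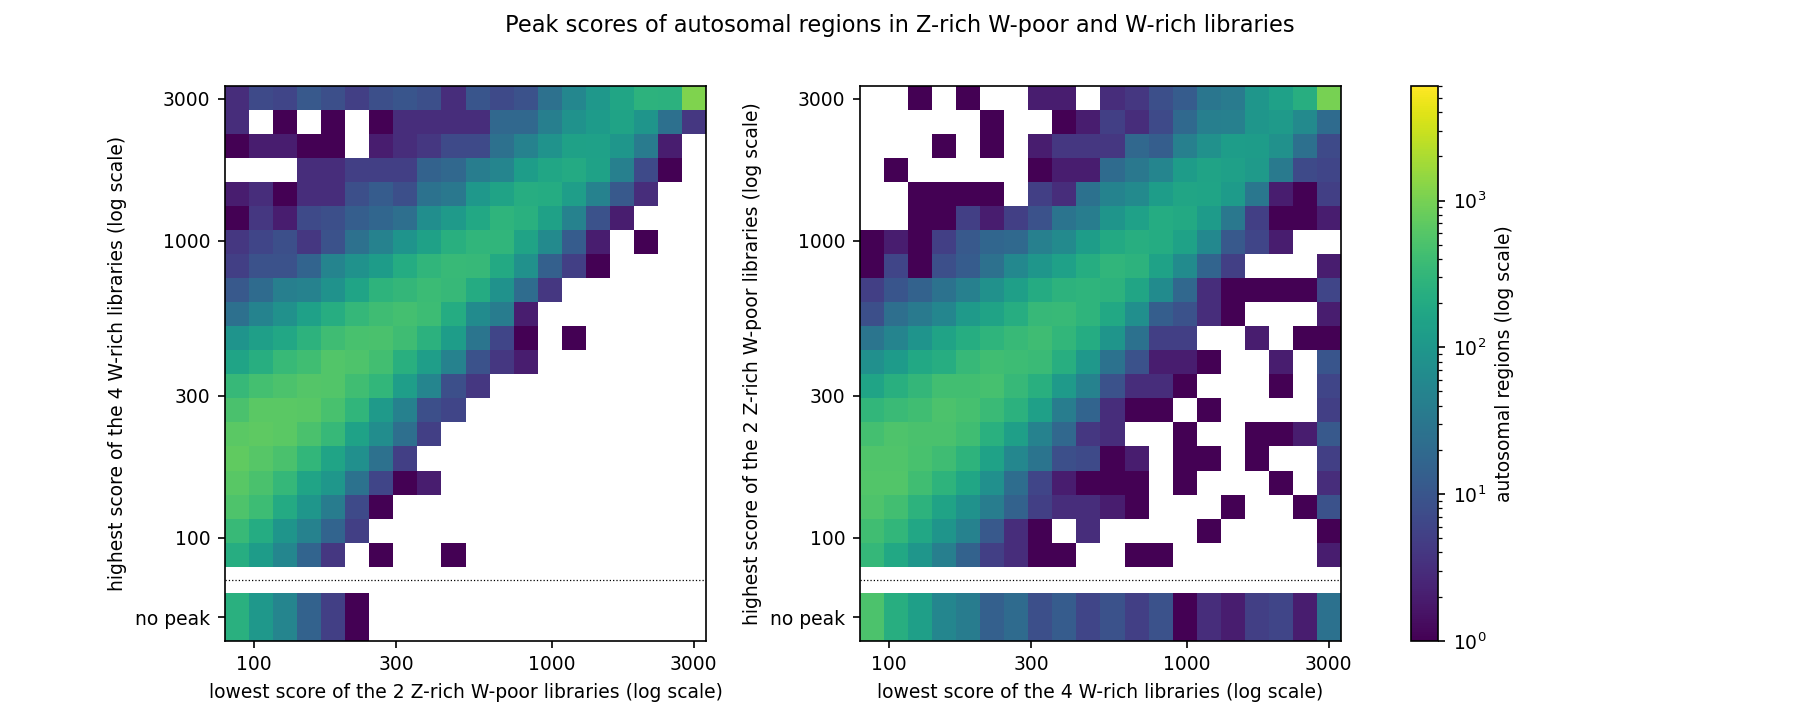
Autosomal regions by the lowest score on 1 side (horizontal, log scale) and the highest score on the other side (vertical, log scale, with regions lacking a peak in the strip at the bottom), coloured by the number of regions on a log scale. Left, regions with a peak in both Z-rich W-poor libraries. Right, regions with a peak in all 4 W-rich libraries, where the column at the right edge runs down to the strip, 83 of its regions having 3100 or more in every W-rich library and under 1000 in both others. The same corner is empty on the left.

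Regions found only in the Z-rich W-poor libraries scored lower than those found only in the W-rich libraries. The median lowest percentile of the W-rich ones was 14.7, above the 9.76 to 12.3 of the other choices of 4 libraries. For the Z-rich W-poor ones it was 10.1, within the 9.14 to 11.9 of the other pairs. Their median length of 549 bp was above the 421.5 to 516 bp of the other pairs. They lay at a median of 1639 bp from the nearest W-rich peak. The highest-ranked was 34668967 to 34669840 on chromosome 7 (874 bp), which scored 212 and 249 in the Z-rich W-poor libraries and had no W-rich peak within 725 bp. Next came 5038457 to 5039532 on chromosome 15 (1076 bp), with scores of 201 and 233, and 9386541 to 9386987 on chromosome 19 (447 bp), with 193 and 203. All 3 sat in the middle of their lists by score. Ranked below them, in order, were 71004856 to 71005857 on chromosome 1, 25927022 to 25927560 on chromosome 5 and 20000558 to 20001298 on chromosome 1. Then came 2491575 to 2492503 on chromosome 4 and 53319405 to 53320316 on chromosome 1. The last were 62851186 to 62851826 on chromosome 2 and 3149198 to 3150691 on chromosome 9. The one on chromosome 2 was the most isolated, 14504 bp from a W-rich peak.

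Windows of 100 kb were compared next. Both Z-rich W-poor libraries were above every W-rich library in 253 of the 1909 windows with at least 5 kb in each of them, against 34 to 314 windows for the other pairs. All W-rich libraries were above both Z-rich W-poor libraries in 119 of 1842 windows, against 44 to 395 for the other choices. The top window of the second kind stood outside the other choices. In the window from 161000001 to 161100000 on chromosome 1, peaks covered 1.10 and 2.52 kb in the Z-rich W-poor libraries, against 8.65, 9.95, 8.39 and 10.1 kb in the W-rich libraries. The lowest W-rich value was 3.33 times the highest Z-rich W-poor value. Over the other 14 choices of libraries the highest such ratio was 1.21 to 1.76. The neighbouring window from 160900001 to 161000000 ranked second, with 4.43 and 4.17 kb in the Z-rich W-poor libraries, against 7.81, 8.05, 8.22 and 8.08 kb in the W-rich libraries. These windows were ranked by this ratio, so their values are a description.

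The Z-rich W-poor libraries had 0 peaks over 64948 bp of this block, from 160996675 to 161061622. The W-rich libraries had 5, 10, 6 and 9 peaks there. Within it the region 161011096 to 161011900 scored 523, 723, 682 and 354 in the W-rich libraries, and 161000155 to 161001093 scored 430, 541, 498 and 493. Overlapping its start, the region 160994383 to 160997238 had a peak in every library, with scores of 172 and 242 in the Z-rich W-poor libraries, against 2994.8, 3100, 2534.21 and 2824.97 in the W-rich libraries. Beyond its end the difference went on. At 161083568 to 161086080 resistant replicate 3 had no peak and susceptible replicate 3 scored 83.16, against 720.93, 1636.38, 1168.28 and 1301.62 in the W-rich libraries. At 161088662 to 161089623 the values were no peak and 199.5, against 2618.39, 2428.7, 2070.84 and 1683.3. Farther on, at 161102724 to 161105024, the scores were 2123.32 and 2300.4 in the Z-rich W-poor libraries and 3100 in each W-rich library. Covered length there was nearly equal, with 2239 and 2247 bp in the Z-rich W-poor libraries, against 2275, 2291, 2260 and 2279 bp in the W-rich libraries. In the stretch around the window plotted here 0 of 24 regions were found in the Z-rich W-poor libraries only and 7 in the W-rich libraries only. Over all 84237 autosomal regions these numbers were 431 for the Z-rich W-poor and 1088 for the W-rich libraries. The stretch was picked for its low coverage in the Z-rich W-poor libraries, so this excess follows from the choice.

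**Figure D5:**
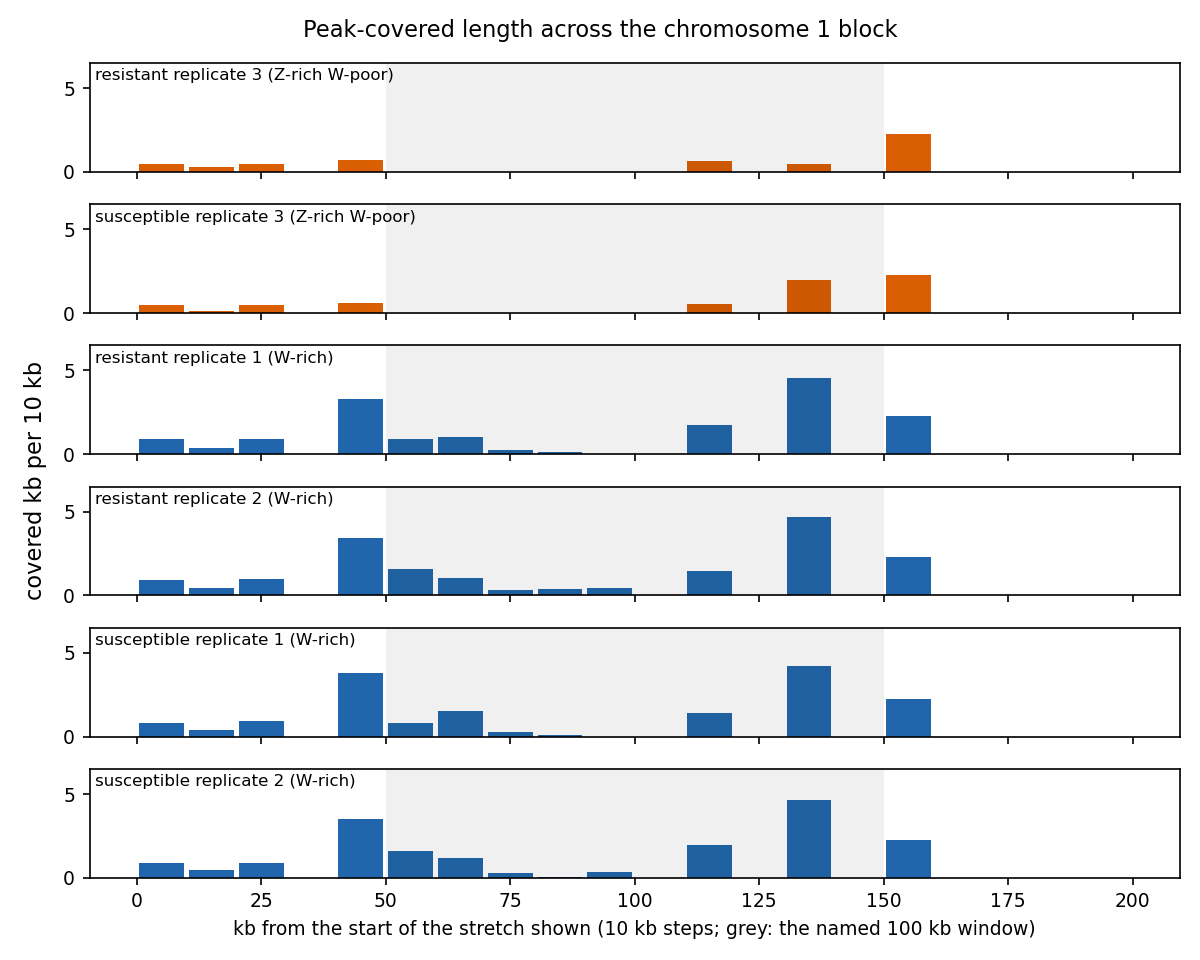
Peak-covered length in steps of 10 kb across the chromosome 1 block, 1 row per library, with Z-rich W-poor libraries (orange) above W-rich libraries (blue) and the named 100 kb window in grey. The orange rows are empty over most of the left part of the grey window, where each blue row has peaks, and all 6 rows are nearly equal at the step just after it.

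Other windows differed less. Ranked after these were 1100001 to 1200000 on chromosome 13, with 4.18 and 4.18 kb in the Z-rich W-poor libraries, against 6.19, 5.75, 5.64 and 6.99 kb in the W-rich libraries, then 15700001 to 15800000 on chromosome 4 and 38300001 to 38400000 on chromosome 3. Their ratios were 1.35, 1.34 and 1.33. With higher coverage in the Z-rich W-poor libraries, the first window was 1 to 100000 on chromosome 15, with 5.91 and 5.64 kb in the Z-rich W-poor libraries, against 3.36, 2.06, 2.55 and 2.44 kb in the W-rich libraries. The second, 1600001 to 1700000 on chromosome 28, had 8.65 and 8.75 kb in the Z-rich W-poor libraries, against 5.44, 5.68, 5.63 and 5.28 kb in the W-rich libraries. Their ratios of 1.68 and 1.52 lay within the 1.12 to 2.11 that the top windows of the other pairs reached. The others named were 1400001 to 1500000 on chromosome 13, 4900001 to 5000000 on chromosome 2 and 18900001 to 19000000 on chromosome 4, with ratios of 1.20, 1.17 and 1.15.

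The likeness of the Z-rich W-poor pair on the autosomes lay within the range of the other pairs, near its top. Its Jaccard index, the length covered in both libraries divided by that covered in either, was 0.646 on the autosomes. The other 14 pairs ranged over 0.623 to 0.649 (median 0.636). Of these, 13 stood lower, and only resistant replicate 2 with susceptible replicate 1 stood higher.

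On Z and W, which chose the sides, the values were as follows. On Z the lists held 5102 and 5149 peaks in the Z-rich W-poor libraries, against 3114, 3238, 2978 and 3145 in the W-rich libraries. Mean width was 1054 and 1089 bp in the Z-rich W-poor libraries, against 818, 809.9, 827 and 829 bp in the W-rich libraries. Of 5594 merged regions on Z, 951 had a peak only in the Z-rich W-poor libraries and 49 only in the W-rich libraries. Where all 6 libraries had a peak (1655 regions), the median score was 1130.53 and 1033.37 in the Z-rich W-poor libraries, against 335, 380.2, 358 and 365 in the W-rich libraries.

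Coverage along Z was uneven. In windows of 1 Mb with at least 5 kb in every W-rich library, both Z-rich W-poor libraries exceeded all W-rich ones in 54 of 55. The exception was the last stretch, 82000001 to 82363454, with 270.3 and 261 kb in the Z-rich W-poor libraries, against 264, 246, 256 and 245 kb in the W-rich libraries. The ratio of the means was 1.05 there, 1.96 in the middle-ranked window (56000001 to 57000000) and 12.9 in the window from 27000001 to 28000000. The last of these had 223 and 198 kb in the Z-rich W-poor libraries, against 24.4, 13.6, 12.2 and 15.2 kb in the W-rich libraries, and the next highest ratio was 3.31.

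W was not empty in the Z-rich W-poor libraries. It held 94 and 99 peaks in them, against 305, 297, 287 and 305 in the W-rich libraries. Every W region with a Z-rich W-poor peak, 97 in all, also had a W-rich peak, and 87 had one in all 4 W-rich libraries. In the 65 W regions shared by all libraries the median score was 341 and 369 in the Z-rich W-poor libraries, against 1158, 1274.48, 1175.55 and 1174.22 in the W-rich libraries. Regions found only in the W-rich libraries numbered 117 of 350, and those found only in the Z-rich W-poor libraries 0.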

How the data were processed

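Each of the 6 immunoprecipitated libraries has 1 deposited peak list, made by MACS for that library and its equally numbered input, per the file names and peak names. Cutadapt, Bowtie2 and galGal4 are named in the submitters' processing notes. Their versions and the read filters are not given in the sources used. The deposited score was read from its values as -10 times the log10 of the caller's p, with a minimum of 80 that matches the limit of 1e-08 in the file names. It rises with depth, which is unknown, so scores were compared as percentiles within a list, and raw scores are descriptions. Deposited peak starts count from 0 and are printed from 1.

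The 6 lists were read with Python 3.11.15, pandas 2.3.3 and numpy 2.4.6. Chromosome length is the highest peak end in any list, a lower bound. Peaks that overlap or touch were merged. Single values were compared with exact two-sided permutation tests over the 15 choices of 2 of 6 libraries, and the other choices also give the range beside each region count. Groups come from the source label, and replicate numbers follow deposition order. Counting was checked on simulated lists. Named regions were the 10 of each direction with the highest lowest percentile (ties in genome order), and named windows the 5 of each direction with the highest ratio, with at least 5 kb on the higher side and 0.1 kb as floor. The sides, lists, regions and tests were chosen with earlier results of these data known. The limits of percentile 50, score 3100 and score 1000 were set after seeing the data. The gene table at hand is on another build, so genes, promoters and sequence are not analysed here. Results were recomputed without each library, without LGE64, with only peaks scoring at least 191.03 (the median over all lists), with the 50351 best autosomal peaks per list, with presence defined as 50% of a region covered, with peaks joined across gaps of up to 500 bp, and in fixed windows of 1000 bp.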

Additional observations from a re-analysis of the deposited data

How the results depend on the processing

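Of 117 values recomputed under the alternatives, 9 differences turned, 18 counts moved over 1.5 times and 90 values stayed. A difference stayed if it kept its direction, and a count if it was within 1.5 times. The similarity stayed if it changed by less than 0.00710, the standard deviation over the other 14 pairs. The 90 include the count of 83, which most alternatives could hardly change. They also include runs without LGE64, which is 0.0868% of the autosomal length. Directions are Z-rich W-poor minus W-rich. With equal numbers of highest-scoring peaks the difference turned to 2.88 Mb for covered length, 1.64 kb per Mb on chromosomes 1 to 5 and 3.44 kb per Mb on chromosomes 6 to 10. At equal peak numbers, total covered length repeats mean width. Without 1 library the difference ranged over -8843.17 to -5961.17 for peak number, 79.4 to 115 bp for width, 1.08 to 1.93 Mb in shared regions, and -1.01 to 0.592 Mb for covered length. It ranged over -1.36 to -0.0791 kb per Mb on chromosomes 1 to 5, -1.61 to 0.368 on chromosomes 6 to 10, and 0.181 to 3.41 on chromosomes 11 to 28. On chromosomes 6 to 10 it turned without resistant replicate 1 (0.368), resistant replicate 3 (0.346) or susceptible replicate 2 (0.345). Regions of the Z-rich W-poor libraries numbered 626 to 2817 without 1 library, 176 at the pooled median score, 816 with equal list lengths and 755 in fixed windows. Those of the W-rich libraries numbered 1572 to 2892, 668, 622 and 283 in the same order. Strong W-rich regions numbered 154 to 256 without 1 library and 622 at the pooled median score, where the weaker peaks of the other side are removed by construction (102 to 279 for the other choices). For the remaining changes the cause was not tested. The difference in similarity ranged over 0.00769 to 0.0142 without 1 W-rich library, and has no value without a Z-rich W-poor one. The count of peaks has no value with equal lists. Strong regions and the score limits of 3100 and 1000 were added after seeing the data, and were not run in fixed windows. No paired analysis was possible because replicate numbers follow deposition order and pair no samples. Since depth is unknown, a missing peak cannot be told apart from too few reads.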
